A study of Homo sapiens with 6 samples.

Results

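The SWI/SNF chromatin remodelling subunits described here are 10 genes, SMARCA4, SMARCA2, ACTL6A, ACTL6B, SMARCB1, SMARCC1, SMARCD3, ARID1A, ARID1B and ARID2. They were taken by symbol from the 31814 genes of the deposited expression table, and each symbol matched 1 row. The samples are H69, an established human line grown in RPMI medium with serum, with RNA-seq of 3 libraries of cells kept 24 h with DMSO (vehicle) and 3 libraries of cells kept 24 h with trichostatin A (TSA) at 1 µM, an inhibitor of histone deacetylases. The agent is called TSA in the study's design and protocol, although a tag on the treated samples spells it HSA. All 6 libraries come from this line, whose tissue the labels do not give, and no label says whether the 3 libraries of a group were separate cultures, so the spread behind each p-value is that among libraries and could be technical.

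SWI/SNF complexes, also called BAF complexes, use the energy of ATP to move or evict nucleosomes and so open enhancers and promoters. Each complex holds an ATPase, SMARCA4 or SMARCA2, a set of core subunits, and subunits that set its class: ARID1A or ARID1B in canonical BAF, ARID2 in PBAF, and neither in non-canonical BAF. Many positions can be filled by alternative paralogs, and in neurons ACTL6B takes the place of the ACTL6A of progenitor cells. Several subunits carry domains that bind acetylated or otherwise modified histones, and genes of the family are often mutated in cancer.

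TSA-treated libraries held less RNA of most of these subunits and more of a few alternative paralogs. Of the 10 genes 6 fell, each at least 2-fold, 2 rose at least 2-fold and 2 did not pass the test. In the values as deposited the 3 ARID genes fell most, but not with length and GC trends taken out, as given below. ARID1A, ARID1B and ARID2 went from means of 95.3, 20.4 and 47.8 TPM to 19.3, 2.67 and 8.26 TPM. TPM is transcripts per 1e6 transcripts, that is reads scaled by gene length and library total. SMARCD3 rose from 5.80 ± 0.930 to 46.8 ± 2.04 TPM and ACTL6B from 59.96 ± 4.40 to 186 ± 4.50 TPM (mean ± SD, n = 3 each).

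The test was limma on log2(TPM + 1) across all genes, with a Benjamini-Hochberg adjusted p under 0.05 called, and fold changes below are on that scale. Changes were common in these libraries: of 17596 tested genes 62.2% were called, 28.0% higher and 34.2% lower, with 15.5% higher and 19.7% lower by a factor of 2 or more. The groups did not overlap in 67.0% of tested genes, and in 8 of the 10 members. All 10 members passed the filter of 1 TPM in at least 3 libraries. Their median log2 fold change was −1.53, beside −0.095 over all tested genes, and their summed level ran from 1010 to 1068 TPM in vehicle and from 735 to 755 TPM in TSA.

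The libraries held between 22738149 and 26386277 reads recovered from the table, and the members between 164 and 9478 reads per library. Mitochondrial genes took 4.97% to 12.3% of the TPM in vehicle and 7.65% to 16.9% in TSA. The tenth of tested genes with the greatest length deviated from the group mean by a median log2 of −0.25 in vehicle replicate 2 and 0.34 in TSA replicate 1. All 8 neuroendocrine markers of a list were tested, with a summed level of 1436 to 1706 TPM in vehicle and 732 to 846 TPM in TSA, and 5 of them were lower and 2 higher. Of 8 neuron markers 6 were tested, and 3 were higher, 1 lower and 2 not called, beside 28.0% higher and 34.2% lower of all tested genes. The summed level of all 8 was 680 to 829 TPM with vehicle and 575 to 682 with TSA, and these ranges overlapped. The lower marker was STMN2, with group means of 486 and 196 TPM. The sums thus did not follow the 3 markers that rose, SYN1, SNAP25 and NEFL. Of these, NEFL was below 1 TPM in every vehicle library (means of 0.0130 and 2.20 TPM). It entered the test only through its TSA values, so its place among the tested markers depended on its being higher there. Bile duct markers summed to 184 to 281 TPM in vehicle and 89.3 to 146 TPM in TSA, fibroblast markers to 0.211 to 0.906 and 5.34 to 7.21 TPM, and blood cell markers to 1.18 to 2.22 and 3.25 to 5.37 TPM. Only 1 fibroblast marker, COL1A1 (means of 0.510 and 5.44 TPM), and 1 blood cell marker, CD68 (1.14 and 3.88 TPM), were tested. COL1A1 too was below 1 TPM in every vehicle library and entered the test through its TSA values. The other 5 fibroblast and 3 blood cell markers measured were below 1 TPM in every library. Among these the blood cell marker PTPRC had means of 0.480 and 0.0432 TPM. The part of these marker genes in the changes of the subunits was not tested. In RNA of a whole culture, fewer cells with a transcript and less of it per cell cannot be told apart.

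Promoter sequence is shown for 5 members, both that rose and 3 of those that fell by 1.5 or more on the log2 scale, because members that moved in opposite directions can be set side by side. RefSeq promoters on GRCh38.p14 matched 7 of the 10 genes, and ACTL6A, SMARCC1 and ARID2 are named only. Each line gives the 250 bases before the RefSeq start, 5′ to 3′ on the strand of the gene, with capitals for GGGCGG (the GC box, bound by SP factors) or CCAAT (the box bound by NF-Y) on either strand. The windows lie at chr7:151277150-151277399, minus strand (SMARCD3), chr7:100656449-100656698, minus strand (ACTL6B), chr19:10960780-10961029, plus strand (SMARCA4), chr1:26695765-26696014, plus strand (ARID1A), and chr22:23786716-23786965, plus strand (SMARCB1). RNA-seq gene totals do not say which start H69 cells used.
SMARCD3: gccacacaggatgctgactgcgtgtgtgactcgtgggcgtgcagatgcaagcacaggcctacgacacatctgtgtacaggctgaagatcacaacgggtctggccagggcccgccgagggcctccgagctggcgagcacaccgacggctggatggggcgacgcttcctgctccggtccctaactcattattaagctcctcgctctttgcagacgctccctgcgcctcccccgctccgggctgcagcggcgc
ACTL6B: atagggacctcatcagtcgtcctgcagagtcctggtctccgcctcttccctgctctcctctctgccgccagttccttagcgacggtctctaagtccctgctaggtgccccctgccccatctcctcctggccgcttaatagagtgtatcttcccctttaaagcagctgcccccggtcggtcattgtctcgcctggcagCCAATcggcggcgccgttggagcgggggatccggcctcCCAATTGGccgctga
SMARCA4: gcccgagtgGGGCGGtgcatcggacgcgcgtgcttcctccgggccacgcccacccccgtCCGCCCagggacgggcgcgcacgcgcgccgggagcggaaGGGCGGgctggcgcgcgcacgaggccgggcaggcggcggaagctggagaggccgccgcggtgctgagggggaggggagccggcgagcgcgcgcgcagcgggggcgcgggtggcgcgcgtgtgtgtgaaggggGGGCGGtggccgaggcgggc
ARID1A: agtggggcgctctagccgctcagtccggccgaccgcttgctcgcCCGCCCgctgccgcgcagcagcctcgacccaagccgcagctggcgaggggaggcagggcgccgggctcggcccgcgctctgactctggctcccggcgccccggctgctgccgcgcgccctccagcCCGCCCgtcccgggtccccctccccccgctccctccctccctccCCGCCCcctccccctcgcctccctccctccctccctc
SMARCB1: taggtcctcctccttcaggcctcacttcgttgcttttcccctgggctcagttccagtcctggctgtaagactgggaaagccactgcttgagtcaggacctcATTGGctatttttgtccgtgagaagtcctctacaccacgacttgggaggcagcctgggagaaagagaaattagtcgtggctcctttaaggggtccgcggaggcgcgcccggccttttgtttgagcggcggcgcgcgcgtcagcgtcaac

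The window of SMARCA4 held 4 GC boxes and that of ARID1A 3, while those of SMARCD3, ACTL6B and SMARCB1 held none. SMARCA2, which did not pass the test, had 2. A GC box was present in 42.6% of 35116 RefSeq promoter windows of the same length. The ACTL6B window held 3 matches to CCAAT, of which the pair nearest the start overlaps on opposite strands, and that of SMARCB1 held 1, against 32.0% of all windows with any. Neither TATAAA nor the E-box CACGTG nor the cyclic AMP response element TGACGTCA was found in the 7 windows. The G and C content was 82.4% for SMARCA4 and 80.4% for ARID1A, against 65.2% for SMARCD3, 62.4% for ACTL6B, 58.0% for SMARCB1 and a median of 58.0% over all windows. The CpG ratio, observed over that predicted from base content, was 1.10 for SMARCA4, 0.829 for ARID1A, 0.793 for SMARCD3, 0.761 for SMARCB1 and 0.683 for ACTL6B, each above the median of 0.558. ARID1B, which fell and is not printed, held no GC box and 1 CCAAT, with 38.8% G and C and a CpG ratio of 0.558. The GC box was thus missing from the windows of both members that rose and from 2 of the 4 matched members that fell.

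Of the ATPase genes, SMARCA4 was called lower and SMARCA2 did not pass the test. SMARCA4 (ENSG00000127616.13), the catalytic subunit also known as BRG1, was at 79.2, 65.4 and 88.04 TPM in vehicle replicates 1, 2 and 3 and at 28.9, 20.2 and 22.3 TPM in TSA replicates 1, 2 and 3. Every TSA value lay below every vehicle value, and SMARCA4 fell by 1.67 on the log2 scale (SE 0.17, limma adjusted p 0.00020). SMARCA2 (ENSG00000080503.15), the alternative ATPase known as BRM, was at 98.0, 67.4 and 93.6 TPM in vehicle and at 92.2, 52.5 and 49.8 TPM in TSA. TSA replicate 1 stood among the vehicle values while the other 2 TSA libraries lay below them. The log2 fold change of SMARCA2 was −0.45 (SE 0.26, 95% interval −1.08 to 0.19, limma adjusted p 0.19). The value of SMARCA2 moved with the libraries kept and with processing. Without TSA replicate 1 it was −0.73 (limma adjusted p 0.00903) and without both replicate 1 libraries −0.63 (limma adjusted p 0.0173), while without TSA replicate 3 it was −0.29 (limma adjusted p 0.438) and with length and GC trends taken out −0.14 (limma adjusted p 0.525).

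As a share of the TPM of both ATPase genes, SMARCA2 held 55.3%, 50.7% and 51.5% in vehicle and 76.1%, 72.2% and 69.1% in TSA. The shares did not overlap and differed by 19.95 percentage points, with a two-sided exact permutation p of 0.1, the smallest that 3 against 3 allows (0.114 adjusted over 8 shares). The summed level of the ATPase genes was 164 ± 27.0 TPM in vehicle and 88.6 ± 28.1 TPM in TSA (n = 3 each), without overlap. RNA of SMARCA2 was thus above that of SMARCA4 within every library of both groups. In vehicle the levels were near each other and their ranges overlapped across libraries, while in TSA the ranges did not overlap.

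By a rule of greatest Pearson correlation of log2(TPM + 1) over the 6 libraries, the tested genes most like SMARCA4 were FOSL2, KIAA1211 and ADAMTS18 (r of 0.9996, 0.9994 and 0.9993). Those most like SMARCA2 were STXBP5L, ANKRD17 and FLRT3 (r of 0.9978, 0.9978 and 0.9977). With 6 libraries in 2 groups such values describe the shared step between groups and the shared deviations of single libraries.

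**Figure D1:**
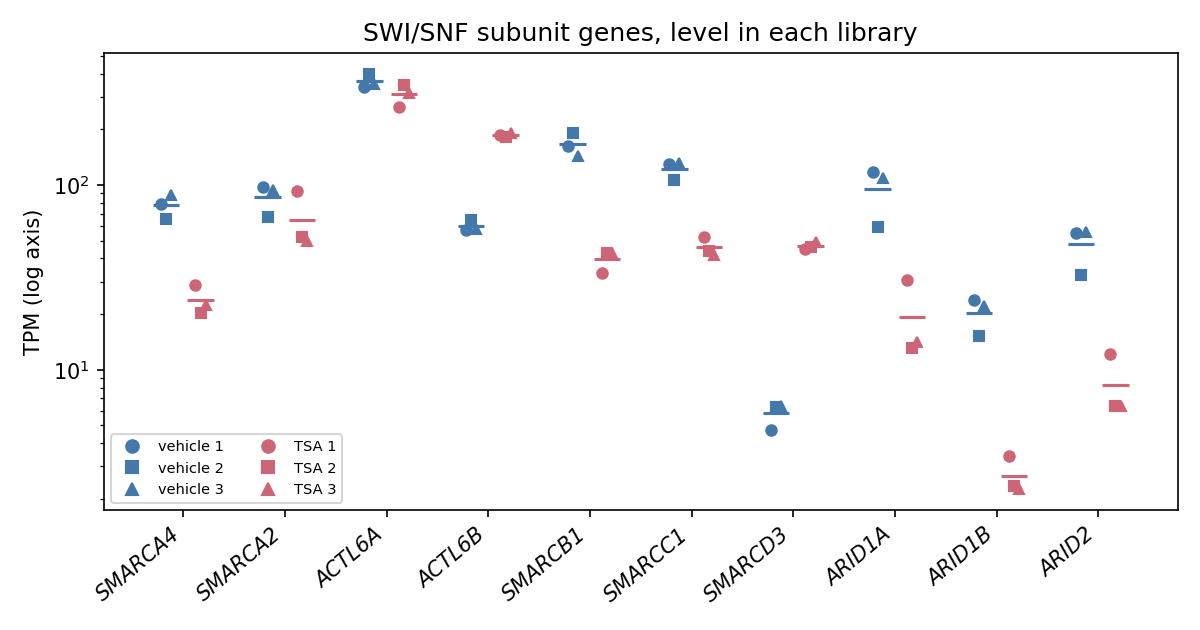
Level of the 10 SWI/SNF subunit genes in TPM (log axis) in each library, with vehicle in blue and TSA in red, marker shape for the replicate number and horizontal lines for group means. ACTL6B and SMARCD3 were higher in every TSA library, 6 genes were lower in every TSA library, and the groups overlapped for ACTL6A and SMARCA2.

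Of the actin-related subunits, which bind the ATPase, ACTL6A (ENSG00000136518.12) was the most abundant member in both groups. It stood at 340, 400 and 353 TPM in vehicle and at 266, 346 and 315 TPM in TSA. The groups overlapped, and the log2 fold change was −0.24 (SE 0.13, 95% interval −0.56 to 0.08, limma adjusted p 0.16). For ACTL6A a quantile scaling gave −0.19 (limma adjusted p 0.05 after rounding, at the threshold itself), a median-of-ratios scaling −0.12 (0.624), voom on recovered reads −0.11 (0.555) and the removal of length and GC trends −0.062 (0.706). Without TSA replicate 1 the log2 fold change of ACTL6A was −0.14 (limma adjusted p 0.343). ACTL6B (ENSG00000077080.5), the paralog of neuronal BAF complexes, was at 56.8, 65.0 and 58.1 TPM in vehicle and at 186, 182 and 191 TPM in TSA. The lowest TSA value of ACTL6B was well above its highest vehicle value, and the gene rose by a log2 fold change of 1.62 (SE 0.086, limma adjusted p 1.8e-05). ACTL6B held 14.3%, 14.0% and 14.2% of the TPM of both genes in vehicle and 41.2%, 34.4% and 37.7% in TSA, a difference of 23.6 percentage points (two-sided exact permutation p 0.1, adjusted 0.114). The sum of both genes was 424 ± 36.1 and 495 ± 38.7 TPM, with overlap between the groups (exact permutation p 0.2).

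ACTL6A shares 3.37% of its exon bases in GENCODE 29 with MRPL47 on the opposite strand, a mitochondrial ribosomal protein gene at 369 to 466 TPM in vehicle and 259 to 388 TPM in TSA. The library kit keeps strand, but no source used here states whether the counting did, so reads in the shared bases could not be told apart.

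Among core subunits, SMARCB1 and SMARCC1 fell and SMARCD3 rose. SMARCB1 (ENSG00000099956.13), a core subunit lost in rhabdoid tumours, was at 163, 192 and 144 TPM in vehicle and at 33.6, 42.9 and 43.1 TPM in TSA. The groups lay far apart, and SMARCB1 fell by 2.03 on the log2 scale (SE 0.15, limma adjusted p 5.4e-05). Of the exon bases of SMARCB1 in GENCODE 29, 17.7% overlap DERL3 on the opposite strand, a gene at 3.36 to 4.87 TPM in vehicle and 4.70 to 8.31 TPM in TSA. SMARCC1 (ENSG00000173473.6), a scaffold subunit, was at 129, 107 and 131 TPM in vehicle and at 52.3, 43.7 and 42.0 TPM in TSA. SMARCC1 fell by 1.39 on the log2 scale (SE 0.13, limma adjusted p 0.00013), with no overlap. Its paralog SMARCC2 went from 77.6 ± 11.2 to 22.5 ± 5.77 TPM (n = 3 each), so that the share of SMARCC1 was 60.6% to 62.3% in vehicle and 64.3% to 70.6% in TSA, a difference of 6.21 percentage points (exact permutation p 0.1, adjusted 0.114).

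SMARCD3 (ENSG00000082014.12), an accessory subunit known from cardiac and neural BAF complexes, was at 4.72, 6.28 and 6.39 TPM in vehicle and at 45.0, 46.4 and 49.0 TPM in TSA. It was the least abundant member in vehicle and the fourth in TSA, where its range overlapped that of SMARCC1. SMARCD3 rose by a log2 fold change of 2.82 (SE 0.13, limma adjusted p 1.2e-05), above 98.2% of all tested genes. The paralogs SMARCD1 and SMARCD2 fell, from 184 ± 12.9 to 79.9 ± 1.70 TPM and from 98.9 ± 11.02 to 59.4 ± 3.62 TPM (n = 3 each). SMARCD3 thus held 1.71%, 2.13% and 2.17% of the TPM of the 3 SMARCD genes in vehicle and 24.1%, 25.4% and 25.95% in TSA, a difference of 23.15 percentage points (exact permutation p 0.1, adjusted 0.114). The sum of the SMARCD genes was lower, at 289 ± 10.4 and 186 ± 2.99 TPM, without overlap.

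SMARCD3 shares 574 of its 5198 exon bases in GENCODE 29 with the antisense gene AC021097.1 and 64 with CHPF2, a chondroitin synthesis gene, both on the opposite strand. AC021097.1 was at 7.49 to 14.1 TPM in vehicle and 6.07 to 16.8 TPM in TSA, and its groups overlapped. CHPF2 was at 17.1 to 22.3 TPM in vehicle and at 50.6 to 67.9 TPM in TSA. A further antisense gene, AC005486.1, shares 78 bases and was not analysed here. The part of reads from these genes in the value of SMARCD3 was not tested.

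**Figure D2:**
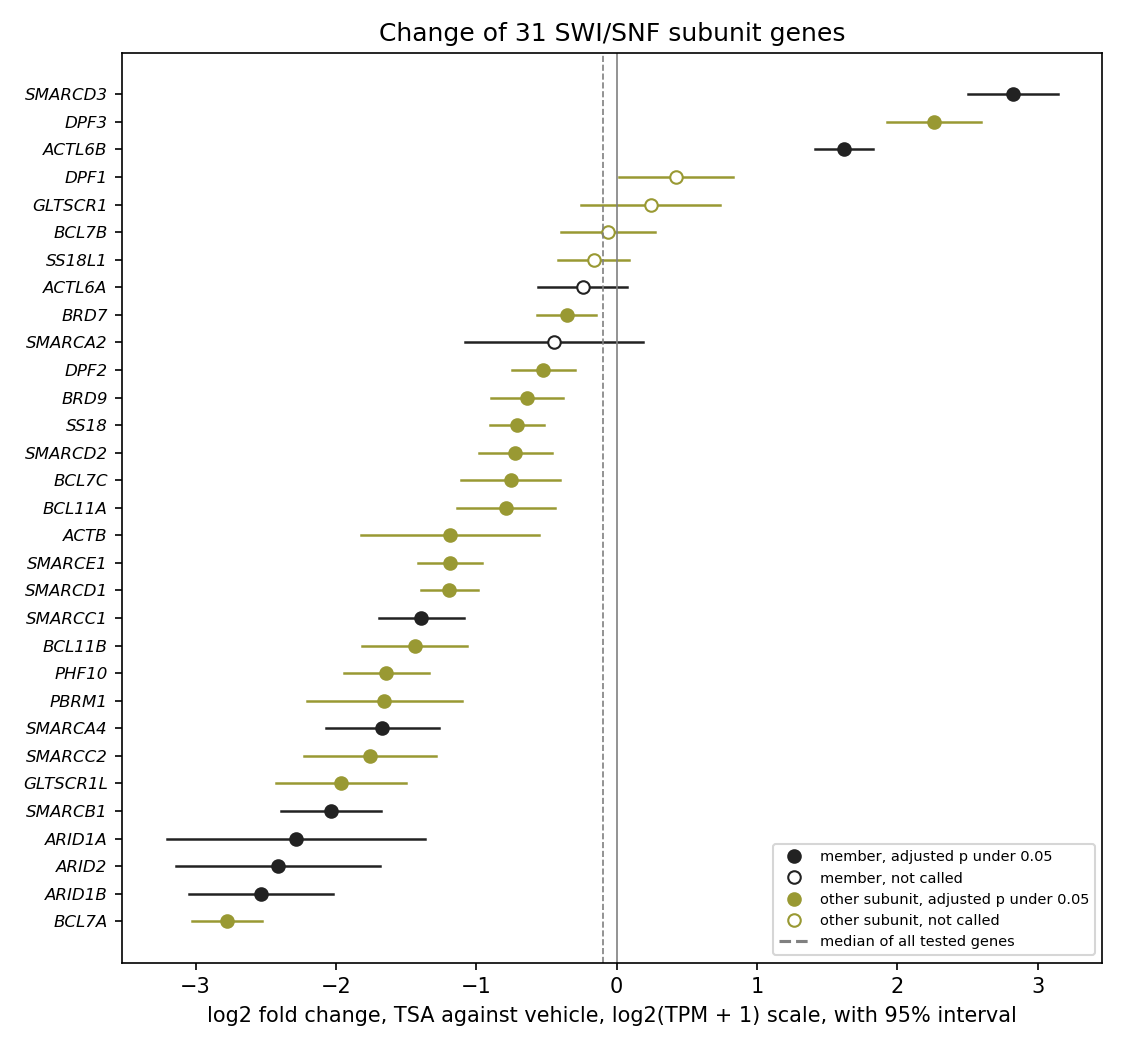
Log2 fold change of TSA against vehicle for 31 SWI/SNF subunit genes with 95% intervals from limma, members in black and other subunits in olive, filled where the adjusted p was under 0.05. SMARCD3, DPF3 and ACTL6B stand to the right, and 22 genes were called lower, beside 34.2% of all tested genes. The dashed line is the median of all tested genes at −0.095.

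The ARID genes, whose products bind DNA and set the class of the complex, all fell. ARID1A (ENSG00000117713.13), the canonical BAF subunit most often mutated in cancer, was at 118, 58.9 and 109 TPM in vehicle and at 30.5, 13.2 and 14.2 TPM in TSA. It fell by 2.28 on the log2 scale, with the widest error of the 10 genes (SE 0.38, limma adjusted p 0.0020). ARID1B (ENSG00000049618.17), its alternative in canonical BAF, was at 23.8, 15.3 and 22.0 TPM in vehicle and at 3.40, 2.36 and 2.26 TPM in TSA. ARID1B fell by 2.53 on the log2 scale (SE 0.21, limma adjusted p 9.5e-05), at percentile 2.8 of the changes of all tested genes. ARID2 (ENSG00000189079.11), the PBAF subunit, was at 55.2, 32.7 and 55.5 TPM in vehicle and at 12.1, 6.34 and 6.36 TPM in TSA, and fell by 2.41 on the log2 scale (SE 0.30, limma adjusted p 0.00051). For each of the 3 genes the TSA libraries lay below all vehicle libraries.

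Within each group the ARID genes followed the same order of libraries in part: vehicle replicate 2 was the lowest vehicle library and TSA replicate 1 the highest TSA library for all 3. The same held for SMARCA4, SMARCA2 and SMARCC1. These are long genes, with lengths in the authors' table of 1.91 to 4.27 times the median of tested genes, against 0.647 for SMARCB1 and 0.655 for ACTL6B. With each library's trends in length and GC content taken out, the log2 fold changes were −2.23 for ARID1A, −2.19 for ARID1B and −1.91 for ARID2 (limma adjusted p 0.000355, 2.5e-05 and 2.9e-05), so that all 3 calls held. SMARCB1 was then at −2.24 (limma adjusted p 1.11e-05), so the ARID genes were no longer the members that fell most.

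The sum of the 3 ARID genes was 163.5 ± 49.3 TPM in vehicle and 30.2 ± 13.7 TPM in TSA (n = 3 each), without overlap. ARID1B held 16.8%, 20.6% and 16.8% of the TPM of ARID1A and ARID1B in vehicle and 10.0%, 15.2% and 13.7% in TSA, 5.11 percentage points less (exact permutation p 0.1, adjusted 0.114). With length and GC trends taken out this difference was −1.54 percentage points (exact permutation p 0.8). ARID2 held 28.0% to 30.6% of all 3 in vehicle and 26.3% to 28.98% in TSA, with overlap (−1.73 percentage points, exact permutation p 0.2, adjusted 0.2), and this difference turned to 4.26 with length and GC trends taken out. The balance among the ARID genes was thus not shown to differ, while their sum did not overlap between the groups.

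**Figure D3:**
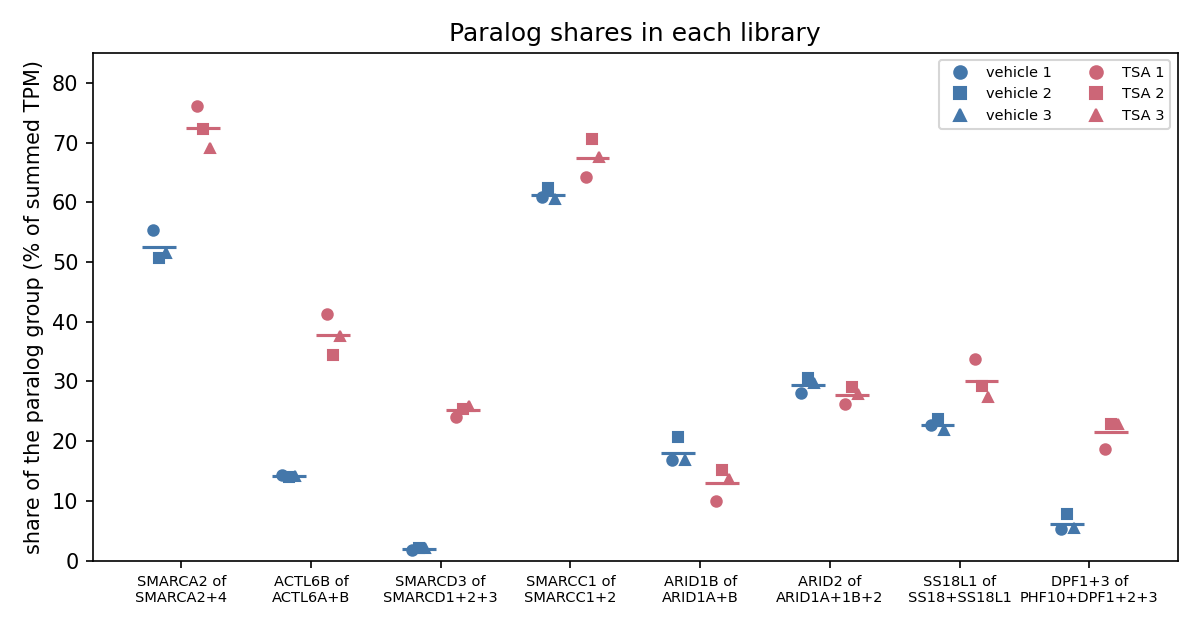
Share of each paralog in the summed TPM of its group, in percent, for every library, with vehicle in blue, TSA in red and lines for group means. Shares of SMARCA2, ACTL6B, SMARCD3, SMARCC1, SS18L1 and of DPF1 with DPF3 were higher in every TSA library, that of ARID1B was lower as deposited but differed by only −1.54 percentage points with length and GC trends taken out, and that of ARID2 overlapped.

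In order of level, ACTL6A led in vehicle, followed by SMARCB1, SMARCC1, ARID1A, SMARCA2, SMARCA4, ACTL6B, ARID2, ARID1B and SMARCD3. From SMARCC1 to SMARCA4 each neighbour's range overlapped the next, and the other neighbours were separate. In TSA the order was ACTL6A, ACTL6B, SMARCA2, SMARCD3, SMARCC1, SMARCB1, SMARCA4, ARID1A, ARID2 and ARID1B. There SMARCD3 overlapped SMARCC1, SMARCC1 overlapped SMARCB1 and SMARCA4 overlapped ARID1A. TPM is per length, so these levels can be set beside each other within the limits of the authors' gene lengths.

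The other subunits of the family gave 16 lower and 1 higher of 21 tested, with a median log2 fold change of −0.75. Over all tested genes 34.2% were lower and 28.0% higher, with a median of −0.095. Among core and ATPase-module genes, SMARCE1 went from 114 ± 8.19 to 49.6 ± 3.21 TPM, BCL7A from 56.7 ± 3.64 to 7.41 ± 0.514 TPM and ACTB, whose actin is also a cytoskeletal protein, from 1857 ± 420 to 819 ± 198 TPM (n = 3 each). BCL7A fell by 2.78 on the log2 scale (limma adjusted p 7.2e-06). BCL7B, at 104 ± 13.6 and 99.98 ± 13.1 TPM, was not called (limma adjusted p 0.73). The PBAF subunits PBRM1 and PHF10 fell by 1.65 and 1.64, and BRD7, also of PBAF, fell by 0.36 (limma adjusted p 0.011), but was not called under 5 of 19 alternatives. These were the removal of length and GC trends (−0.00077, limma adjusted p 0.997), quantile scaling (BRD7 at −0.19, 0.146), median-of-ratios scaling (−0.24, 0.114), voom on recovered reads (−0.23, 0.0767) and leaving out TSA replicate 3 (−0.32, 0.0561). In non-canonical BAF, GLTSCR1L fell by 1.97 and BRD9 by 0.64, while its paralog GLTSCR1 was at 3.45 ± 0.887 and 4.22 ± 0.756 TPM and did not pass (limma adjusted p 0.35). BCL11B, a zinc finger subunit, fell by 1.44 on the log2 scale, with vehicle and TSA means of 4.22 ± 0.638 and 0.918 ± 0.074 TPM. The change of BCL11B depended on the pseudocount and was −2.08 with 0.1 in place of 1. BCL11B was below 1 TPM in every TSA library and entered the test through its vehicle values. It was therefore not tested when any vehicle library was left out, nor with a 5 TPM filter.

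Of the paralogs known from neuronal BAF that enter a share, DPF3 rose beside ACTL6B. DPF3 went from 0.349, 0.255 and 0.185 TPM in vehicle to 5.25, 4.76 and 5.12 TPM in TSA. Its log2 fold change of 2.26 (SE 0.14, limma adjusted p 2.8e-05) depended on the pseudocount and was 3.85 with 0.1 in place of 1. DPF3 was below 1 TPM in every vehicle library and entered the test through its TSA values, so it left the test when any TSA library was left out. DPF1 was at 9.95 ± 2.10 and 13.6 ± 1.33 TPM (log2 fold change 0.42, limma adjusted p 0.066) and SS18L1 at 41.4 ± 1.33 and 36.97 ± 4.06 TPM (log2 fold change −0.16, limma adjusted p 0.21). Their counterparts of progenitor or general complexes were lower: PHF10 went from 105 ± 8.53 to 33.1 ± 4.86 TPM, DPF2 from 50.97 ± 3.88 to 35.2 ± 1.61 TPM and SS18 from 141 ± 3.14 to 85.7 ± 4.18 TPM. DPF1 and DPF3 together held 5.23% to 7.75% of the TPM of the 4 PHD-finger subunit genes in vehicle and 18.8% to 22.9% in TSA, and SS18L1 held 21.8% to 23.7% and 27.3% to 33.8% of the SS18 pair (exact permutation p 0.1 for each, adjusted 0.114). The share of SS18L1 was higher in every TSA library, while its own level did not pass the test and SS18 fell. The zinc finger subunits BCL11A and BCL11B, which enter no share, were both lower. They fell by 0.79 and 1.44 on the log2 scale (limma adjusted p 0.0031 and 0.00027).

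The authors' deposited table gave the same direction for all 10 members. In the authors' deposited table the log2 fold change was 3.09 for SMARCD3, 1.71 for ACTL6B, −2.87 for ARID1B and −1.98 for SMARCB1, with an FDR of 5.83e-18 for ACTL6B. The authors' deposited table gave an FDR of 0.199 for SMARCA2 and 0.578 for ACTL6A.

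**Figure D4:**
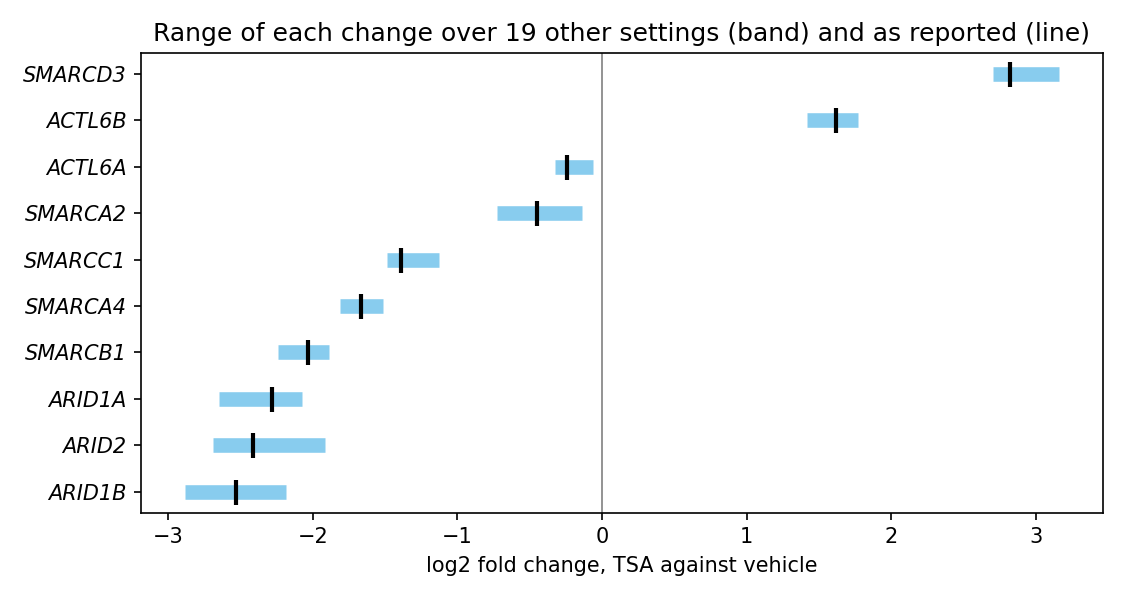
Log2 fold change of each member as reported (black line) and the span of its values over 19 other ways of processing (blue band). No band crosses 0, and those of SMARCA2 and ACTL6A lie nearest to it.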

How the data were processed

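Polyadenylated RNA of 6 libraries was prepared with a stranded kit and sequenced, per the labels' protocols. Tools listed without roles are edgeR, featureCounts, Picard 1.127, STAR 2.5.3a and FastQC 0.11.2, on build hg19, per the submitters' processing notes. The authors deposited TPM per gene of GENCODE 19, scaled by gene length and library total. The authors' deposited table of their comparison holds a log2 fold change, a likelihood ratio score, p-values and FDR, per the file headers, and positive means higher in TSA.

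Genes reaching 1 TPM in 3 or more libraries were tested on log2(TPM + 1) with limma (version 3.58.1, R 4.3.3; a mean-variance trend was fitted), and two-sided p-values were adjusted by Benjamini-Hochberg across every tested gene. This scale understates changes of low genes. Shares were compared by exact permutation (scipy 1.17.1). Ratios of TPM between libraries gave whole reads for 100% of 27644 genes (relative tolerance 1e-09) up to a common multiple. The authors' mean log2 CPM fixed this multiple for the 15001 genes with a mean CPM over 1 (6 for SMARCA2). For the other genes it was left at 1 and not checked. No pair of libraries was a duplicate within sampling noise. The test was also run on simulated data. There far fewer genes changed than were called here and single libraries had no deviations of their own, so it does not cover data like these. Lengths came from reads over TPM, GC content and overlaps from GENCODE 29. Alternatives covered pseudocounts, filters, scalings, variance models, mitochondrial genes, voom on recovered reads, length and GC trends, a replicate block and left-out libraries. The text names every member, other subunits past the test at 2-fold or more and genes of a share, 2 remodellers in each direction, and genes added for family counts. Members and lists were chosen with earlier results of these data known. MS4A1 and HBB were not analysed here.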

Additional observations from a re-analysis of the deposited data

How the results depend on the processing

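The 10 members kept their direction in all 190 combinations of a member with an alternative, and 185 kept their side of the threshold. The other 5 brought SMARCA2 or ACTL6A past it. When libraries were scaled by quantiles or by median of ratios the median of all tested genes moved by 0.11 and 0.10 on the log2 scale, so small changes are relative to the scaling, and 50.5% and 50.1% of called genes were higher against 45.0%. Same-numbered libraries correlated in their deviations at 0.63, 0.59 and −0.073 for replicates 1, 2 and 3, so the number was not taken as a pairing, and not every library correlated best with its own number. With the replicate number as a block 12485 genes were called against 10942, SMARCA2 (−0.45, adjusted p 0.0443) and ACTL6A (−0.24, adjusted p 0.0379) passed the test, and 2 other subunits were higher; for the shares, where the block left the difference unchanged (SMARCD3 23.15 percentage points), its exact sign-flip p was 0.25, the smallest it allows. The count of other subunits called higher, 1 as reported, was 2 without mitochondrial genes, 2 with recovered reads and 0 without both replicate 1 libraries or with a 5 TPM filter, where DPF3 was not tested, and 0 to 2 when single libraries were left out (0 without TSA replicate 2 or 3, where DPF3 was again not tested, and 2 without vehicle replicate 2). Leaving out single libraries gave 3264 (without TSA replicate 3) to 4640 genes higher, against 4929. The share difference of ARID2 was 4.26 with length and GC trends removed. BCL7B, not called, changed sign to 0.059 with median-of-ratios scaling, 0.047 with quantile scaling, 0.076 with recovered reads, 0.010 without both replicate 1 libraries, and −0.13 to 0.052 over single left-out libraries (0.044 without vehicle replicate 2, 0.052 without TSA replicate 1). Except where stated, the cause was not tested. With 3 libraries a group, no exact permutation test of a share could pass 0.05.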

Other observations

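Catalytic and partner subunits of the other remodeller families were also measured, and their counts stand beside 28.0% of all tested genes higher and 34.2% lower. Of 8 tested genes of ISWI complexes 6 were lower at an adjusted p under 0.05 with limma and 2 were not called, and BAZ1A, a subunit of the ACF complex, went from 101 ± 13.7 to 18.4 ± 3.29 TPM (n = 3 each). Of 9 CHD genes 3 were lower, a share near that of all tested genes, and 6 were not called, and CHD3, a helicase of the NuRD complex, fell by 3.72 on the log2 scale from 85.8, 52.2 and 98.7 TPM in vehicle to 6.11, 3.93 and 4.76 TPM in TSA (limma adjusted p 4.6e-05). CHD4, the paralog of CHD3, was at 213 ± 44.3 and 168 ± 63.1 TPM and did not pass the test (limma adjusted p 0.27). CHD4 was named after its values were seen.

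Of 8 genes of INO80 and SRCAP type complexes 4 were higher and 2 lower. RUVBL2, an AAA ATPase shared by these complexes, rose from 78.4 ± 8.98 to 206 ± 18.8 TPM (log2 fold change 1.39, limma adjusted p 0.00010), and ACTR5, an actin-related subunit of INO80, rose from 13.9 ± 1.55 to 31.7 ± 2.75 TPM (log2 fold change 1.14). The 2 lower genes were INO80 and SRCAP. The summed level of all 8 genes was 347 to 384 TPM in vehicle and 503 to 516 TPM in TSA, with the largest gain in TPM in RUVBL2. Whether these families differ from SWI/SNF in their change was not tested.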
